A study of Rattus norvegicus with 50 samples.

Results

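The cytosolic ribosomal protein genes were followed in the lung of rats that inhaled nickel subsulfide (Ni3S2), a poorly soluble nickel compound and a lung carcinogen in rats. The members were the genes of the array's gene table with a symbol of the form Rpl or Rps and a number, with an optional letter or like-suffix, together with Rplp0, Rplp1, Rplp2 and Rpsa, whose probe set carried that symbol alone, and genes of the Rps6k kinases were left out. Where several probe sets remained, the one with the highest mean over the 50 arrays stood for the gene. This gave 41 members among 13438 genes. Of these, 25 belong to the large subunit, 11 to the small subunit, 1 (Rplp0) to the stalk of the large subunit, and 4 (Rpl3l, Rpl7l1, Rpl26l1 and Rpl39l1) are paralogues or like genes. Many ribosomal protein genes had no probe set with a single symbol and are not among them. These include Rplp1, Rplp2, Rps18, Rps19, Rps27, Rps27a, Rpl10, Rpl22, Rpl15, Rpl17, Rps4x and Rps21.

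Male Fischer-344 rats, aged 7 to 8 weeks on receipt, breathed Ni3S2 aerosol at 0.04, 0.08, 0.15 or 0.60 mg/m3, or air alone as controls (0 mg/m3), for 6 hours a day and 5 days a week, over 1 week (5 exposure days) or 4 weeks (20 exposure days). The series compared the concentrations with the air controls of the same time. Each of the 10 groups held 5 arrays, 1 per rat; those 5 were taken from 8 rats for their RNA quality, and animals, not cells, are the replicates. The labels name the material both as right caudal lung and as broncho-alveolar cells, with RNA extracted from distal airway tissue. The surfactant gene Sftpc (13.3 to 13.6) and the club cell gene Scgb1a1 (13.4 to 13.7) were bright on every array, on the log2 intensity scale used throughout. The labels name no batch for the arrays, the exposures or the extractions, and the controls of both times are separate animals.

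A ribosome joins a small subunit, which reads the mRNA, to a large subunit, which forms the peptide bond, and each ribosomal protein is needed in equal number apart from the acidic stalk proteins. Because these mRNAs are abundant and are made together, several of them serve as reference genes in lung work. Many ribosomal protein mRNAs begin with a C followed by an unbroken run of pyrimidines at the transcript start, called a terminal oligopyrimidine tract, through which growth signals that pass through the mTOR kinase control their translation.

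That tract was looked for in the RefSeq promoter table of build GRCr8, which held 34 of the 41 members. The motif searched was a C at the annotated start followed by at least 4 bases that are each C or T, read on the gene's own strand. It stood at the annotated start of 10 of 34 members (29.4%), against 2.63% of all 33469 promoters in the table, and began within 5 bases of the start in 47.1% of members against 17.0% of promoters. The windows of 30 bases below run from 10 bases before the annotated start to 20 bases from it, in 5′ to 3′ order, and capitals mark the run. Rpl19 and Rpl34 are shown because they rose at the higher concentrations at 1 week, Rpl28, Rplp0 and Rps15 because they fell there, Rpl35a because it did neither, and Rpl4 and Rpsa because they moved the most in either direction.
Rpl19: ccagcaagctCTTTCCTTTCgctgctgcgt
Rpl34: tccttttcctCTTCCggggacggtgcttag
Rpl28: cccctagtgtCTTTCTTTCCgtctccggcc
Rplp0: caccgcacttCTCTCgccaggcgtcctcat
Rps15: acaccgcttcCTTTTCCCagcagccgccaa
Rpl35a: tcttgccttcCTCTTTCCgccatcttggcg
Rpl4: tcttccttttcctgtgggagcagccgggta
Rpsa: ccgcgctaccctggaacgggtccgtacggc
In GRCr8 these windows lie at chr10:83519054-83519083 (plus strand) for Rpl19, chr2:221962264-221962293 (minus) for Rpl34, chr1:78083513-78083542 (minus) for Rpl28, chr12:46718371-46718400 (minus) for Rplp0, chr7:10068096-10068125 (minus) for Rps15, chr11:81235002-81235031 (minus) for Rpl35a, chr8:73566467-73566496 (plus) for Rpl4 and chr8:128728869-128728898 (plus) for Rpsa, each spanning the promoter edge and the first transcribed bases. The run was present at the start of 5 of the 17 members with a promoter entry that rose at 0.15 mg/m3 at 1 week (29.4%) and of 4 of the 11 that fell (36.4%). Both directions therefore hold genes with the run, and a window without capitals says only that these letters are absent at the annotated base.

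Across all genes the arrays were ordered mainly along a single axis, the first principal component, which held 63.5% of the variance. The group means on it were -58.0 for 1-week controls, -76.5 at 0.04 mg/m3, -27.1 at 0.08, 8.56 at 0.15 and 2.52 at 0.60 mg/m3 at 1 week, and 20.4 to 38.2 in the 4-week groups, controls included. The 0.08 mg/m3 group at 1 week was spread widest (SD 26.5, n = 5), and the same holds with the members left out of the component. Controls of the 2 times thus lay further apart (-58.0 and 31.3) than any exposed group lay from the 4-week controls except that at 0.04 mg/m3 and 1 week. Most comparisons at 1 week called a large share of all genes, so each count of members below is read against that share.

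At 1 week the ribosomal protein genes did not move as a block but divided into genes that rose, genes that fell and a few that stayed level. Against the 1-week controls, 20 of 41 members rose and 11 fell at 0.60 mg/m3, where 65.1% of all genes were called, 32.8% higher and 32.3% lower (limma, adjusted p under 0.05 over all 13438 genes). At 0.15 mg/m3, 20 rose and 13 fell, where 67.4% of all genes were called, 33.8% higher and 33.7% lower. Members with every exposed array above every control array numbered 20 at 0.60 mg/m3 and 18 at 0.15 mg/m3, where 27.3% and 28% of all genes did so, and 10 and 13 lay wholly below, where 26.1% and 27.3% did. The shares of members called were 75.6% and 80.5%, above those of all genes, with 48.8% of members higher at each concentration and 26.8% and 31.7% lower. These shares carry no test. The sizes of the differences were smaller. The median absolute difference of the members was 0.234 at 0.60 mg/m3 against 0.425 over all genes (log2), and 3 members were called with at least 1.5-fold, where 38.2% of all genes were; at 0.15 mg/m3 the members' figure was 5, against 40.7% of all genes. Median signed changes were 0.173 for the members and -0.01 for all genes at 0.60 mg/m3, and 0.132 and -0.03 at 0.15 mg/m3.

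Among the members, the large subunit supplied most of the rises, and it holds 25 of the 41 genes. Of its 25 genes, 14 rose and 5 fell at 0.60 mg/m3, with a median of 0.189, and of the 11 small subunit genes 4 rose and 5 fell, with a median of 0.00324 (log2). At 0.15 mg/m3 the same counts were 15 and 7 for the large subunit, with a median of 0.190, and 4 and 5 for the small subunit, with a median of -0.03. These counts leave out the genes whose probe sets carry several symbols, in which both subunits held rises and falls. At 0.60 mg/m3 and 1 week the sets holding Rps4x and Rps21 changed by 0.57 and -0.19. Those holding Rpl17 and Rpl15 changed by 0.64 and -0.24 (log2). Of all genes, 32.8% were higher and 32.3% lower at 0.60 mg/m3, and 33.8% and 33.7% at 0.15 mg/m3. The difference between the subunits was not tested.

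**Figure D1:**
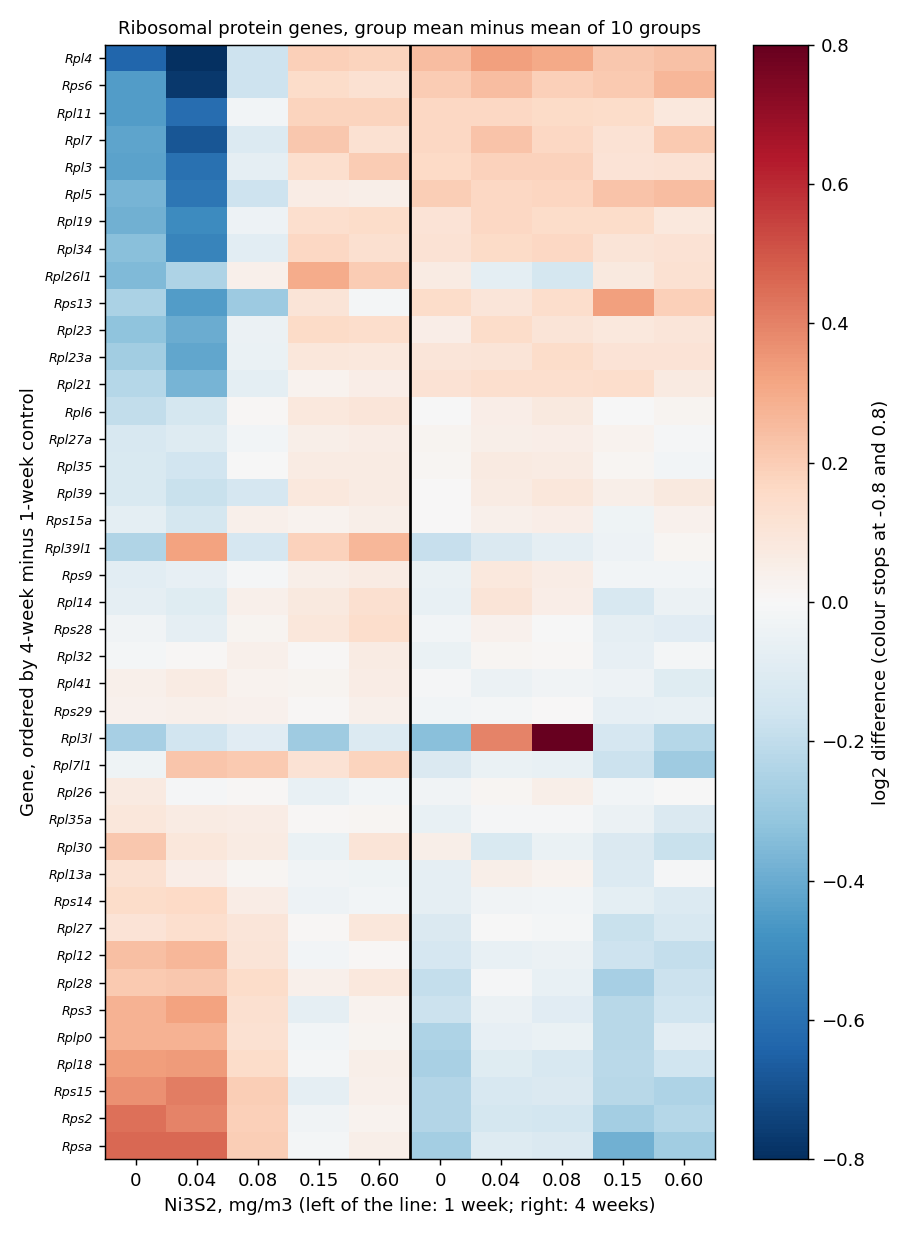
Group mean of each of the 41 ribosomal protein genes minus its mean over the 10 groups (log2 difference, colour), with concentrations at 1 week left and at 4 weeks right of the black line and genes ordered by the difference between the controls of both times. Rpl4 to Rpl21 at the top are low in the 0 and 0.04 mg/m3 columns at 1 week, Rpl12 to Rpsa at the bottom are high there, and the 5 columns at 4 weeks differ little apart from Rpl3l.

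The widest rise was that of Rpl4, a large subunit protein that lines part of the tunnel through which the new peptide leaves. In the 1-week controls its 5 arrays read 11.28, 11.39, 11.27, 11.17 and 11.44. At 0.15 mg/m3 they read 12.15, 12.17, 12.19, 12.11 and 12.07, and at 0.60 mg/m3 12.08, 12.12, 12.13, 12.12 and 12.16. Every array at these 2 concentrations lay above every control array. The difference was 0.83 ± 0.0863 (log2, SE; adjusted p = 1.87e-11) at 0.15 mg/m3 and 0.81 ± 0.0863 (log2, SE; adjusted p = 3.74e-11) at 0.60 mg/m3, with 5 arrays in each group. In the 0.04 mg/m3 group the values were 11.08, 11.03, 11.24, 10.85 and 11.03, in part below the controls. At 0.08 mg/m3 they were 11.20, 11.69, 12.06, 12.03 and 11.90, so replicate 1 lay with the controls and replicates 3, 4 and 5 close to the higher concentrations.

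Rps6, the small subunit protein that the S6 kinases phosphorylate downstream of mTOR, had the same shape. Its control arrays at 1 week read 11.90, 11.93, 11.99, 11.99 and 11.98, and those at 0.04 mg/m3 11.75, 11.71, 11.75, 11.44 and 11.51. The 0.08 mg/m3 arrays read 11.70, 11.93, 12.54, 12.46 and 12.55. At 0.60 mg/m3 the values were 12.48, 12.56, 12.56, 12.55 and 12.47, all above the controls. Rps6 rose by 0.57 ± 0.0892 (log2, SE; adjusted p = 3.14e-07) at 0.60 mg/m3 and by 0.59 ± 0.0892 (log2, SE; adjusted p = 1.13e-07) at 0.15 mg/m3. The groups at 0 and 0.04 mg/m3 did not overlap, with the exposed arrays lower, and at 0.08 mg/m3 the group was split, with 2 arrays below 12 and 3 above.

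Rpl3, which sits beside the centre where peptide bonds form, read 12.21, 12.25, 12.13, 12.05 and 12.23 in the 1-week controls. Its values at 0.60 mg/m3 were 12.81, 12.75, 12.83, 12.81 and 12.82, with no overlap. That is a difference of 0.63 ± 0.0591 (log2, SE; adjusted p = 1.45e-12). A second, dimmer Rpl3 probe set (mean 6.11) also rose, by 0.62 ± 0.0690 (log2, SE; adjusted p = 1.83e-10 over all probe sets). The second probe sets of Rpl28 and Rpl14, both dim (means 4.19 and 3.29), were not called at 0.60 mg/m3 and 1 week (0.06 and 0.05).

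Rpl5 and Rpl11, which enter the large subunit together with its smaller rRNA and can bind the p53 regulator Mdm2 when ribosome assembly is disturbed, both rose. Rpl11 control arrays read 11.88, 11.92, 11.86, 11.81 and 11.96, and its arrays at 0.60 mg/m3 12.38, 12.50, 12.54, 12.56 and 12.60. The groups did not overlap, and the difference was 0.63 ± 0.0667 (log2, SE; adjusted p = 3.72e-11). Rpl5 moved from 12.27, 12.34, 12.26, 12.24 and 12.43 in controls to 12.68, 12.72, 12.72, 12.76 and 12.77, again with no overlap. Its difference was 0.42 ± 0.0651 (log2, SE; adjusted p = 2.28e-07). In the same comparison Mdm2 rose by 1.09 and the p53 target Cdkn1a fell by 1.10 on the log2 scale. Between the unexposed controls, 4 weeks against 1 week, they differed in the same directions, by 1.03 and -1.59 (log2). Both comparisons use the same 1-week control arrays, so a likeness in direction is partly built in. A link to Rpl5 and Rpl11 was not tested.

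Other rising members at 0.60 mg/m3 belonged mainly to the large subunit. Rpl7 rose by 0.55, Rpl19 by 0.53, Rpl34 by 0.46, Rpl23 by 0.46, Rpl23a by 0.36, Rpl6 by 0.29 and Rpl21 by 0.28 (log2). Rpl26l1, a near copy of Rpl26, rose by 0.55 ± 0.0821 (log2, SE; adjusted p = 1.04e-07), while Rpl26 itself fell by 0.10 (adjusted p = 0.0264). The Rpl26l1 probe set was dim (mean 4.98, against 12.94 for that of Rpl26). The small subunit members that rose beside Rps6 did so by less, with Rps28 at 0.17, Rps9 at 0.15 and Rps15a at 0.13.

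**Figure D2:**
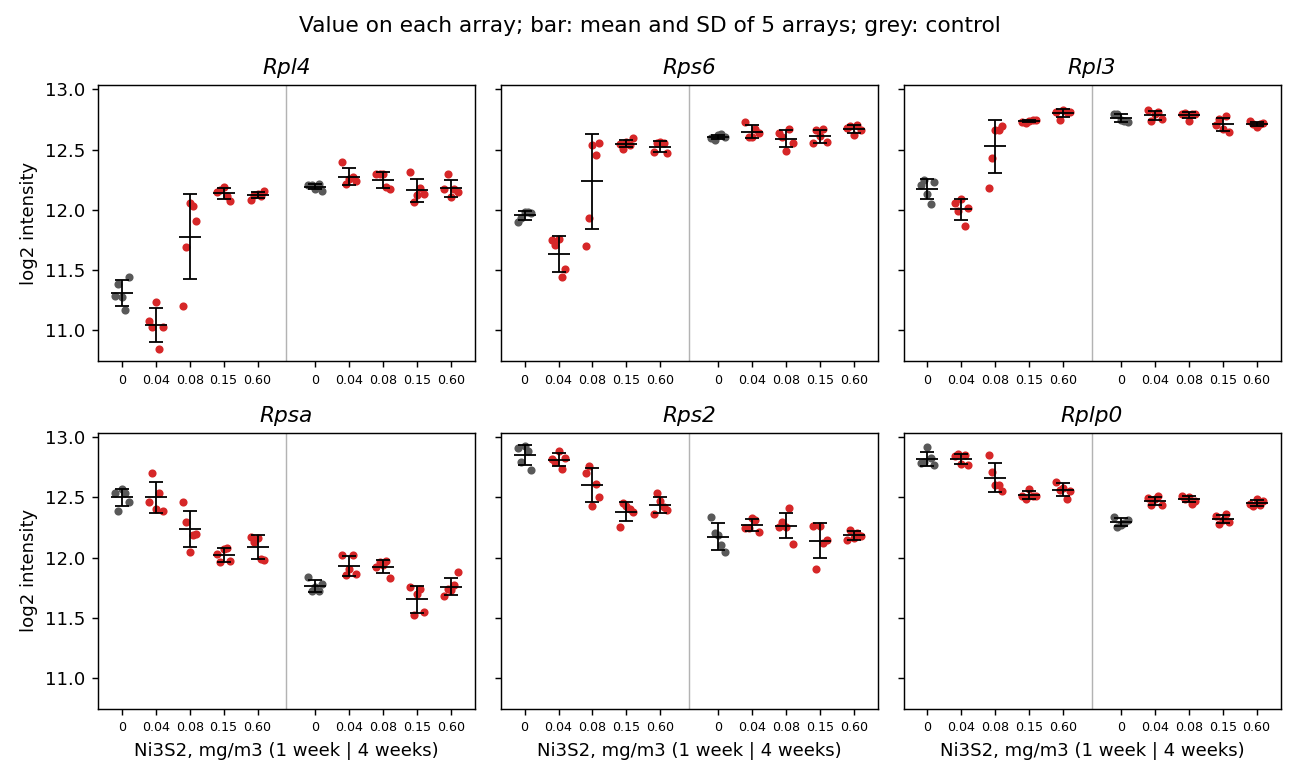
Log2 intensity of Rpl4, Rps6, Rpl3, Rpsa, Rps2 and Rplp0 on each of the 50 arrays against the Ni3S2 concentration in mg/m3, with 1 week left and 4 weeks right of the line, controls in grey, and bars for the mean and SD of 5 arrays. At 1 week the upper 3 genes step up and the lower 3 step down between 0.04 and 0.15 mg/m3, the 0.08 mg/m3 arrays are spread between both levels, and the 4-week groups lie close together.

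Rpsa, a small subunit protein also known as the laminin receptor, fell the furthest along with Rps2. In the 1-week controls Rpsa read 12.54, 12.39, 12.57, 12.53 and 12.46. At 0.15 mg/m3 it read 12.03, 11.96, 12.07, 12.08 and 11.97, and at 0.60 mg/m3 12.17, 12.13, 12.16, 11.99 and 11.98. All 10 exposed arrays were below all 5 controls. The change was -0.48 ± 0.0640 (log2, SE; adjusted p = 9.85e-09) at 0.15 mg/m3 and -0.41 ± 0.0640 (log2, SE; adjusted p = 2.60e-07) at 0.60 mg/m3. Its other 2 probe sets fell as well, by 0.77 and 0.61 at 0.15 mg/m3 and by 0.60 and 0.42 at 0.60 mg/m3 (log2).

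Rps2 and Rps3, which line the channel where mRNA enters the small subunit, also fell. For Rps2 the control arrays read 12.91, 12.79, 12.92, 12.89 and 12.73, and those at 0.60 mg/m3 12.36, 12.54, 12.47, 12.42 and 12.40. No array overlapped, and the change was -0.41 ± 0.0645 (log2, SE; adjusted p = 2.99e-07). Rps3 changed by -0.26, Rps15, which lies near the decoding site, by -0.33, and Rpl18, in the large subunit, by -0.29 (log2). Rplp0, the base of the stalk that recruits elongation factors, read 12.78, 12.79, 12.92, 12.83 and 12.77 in controls and 12.63, 12.56, 12.58, 12.48 and 12.56 at 0.60 mg/m3. Its groups did not overlap, with a change of -0.25 ± 0.0444 (log2, SE; adjusted p = 2.35e-06). Rpl12, which binds at the foot of the same stalk, changed by -0.23 ± 0.0480 (log2, SE; adjusted p = 4.95e-05).

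**Figure D3:**
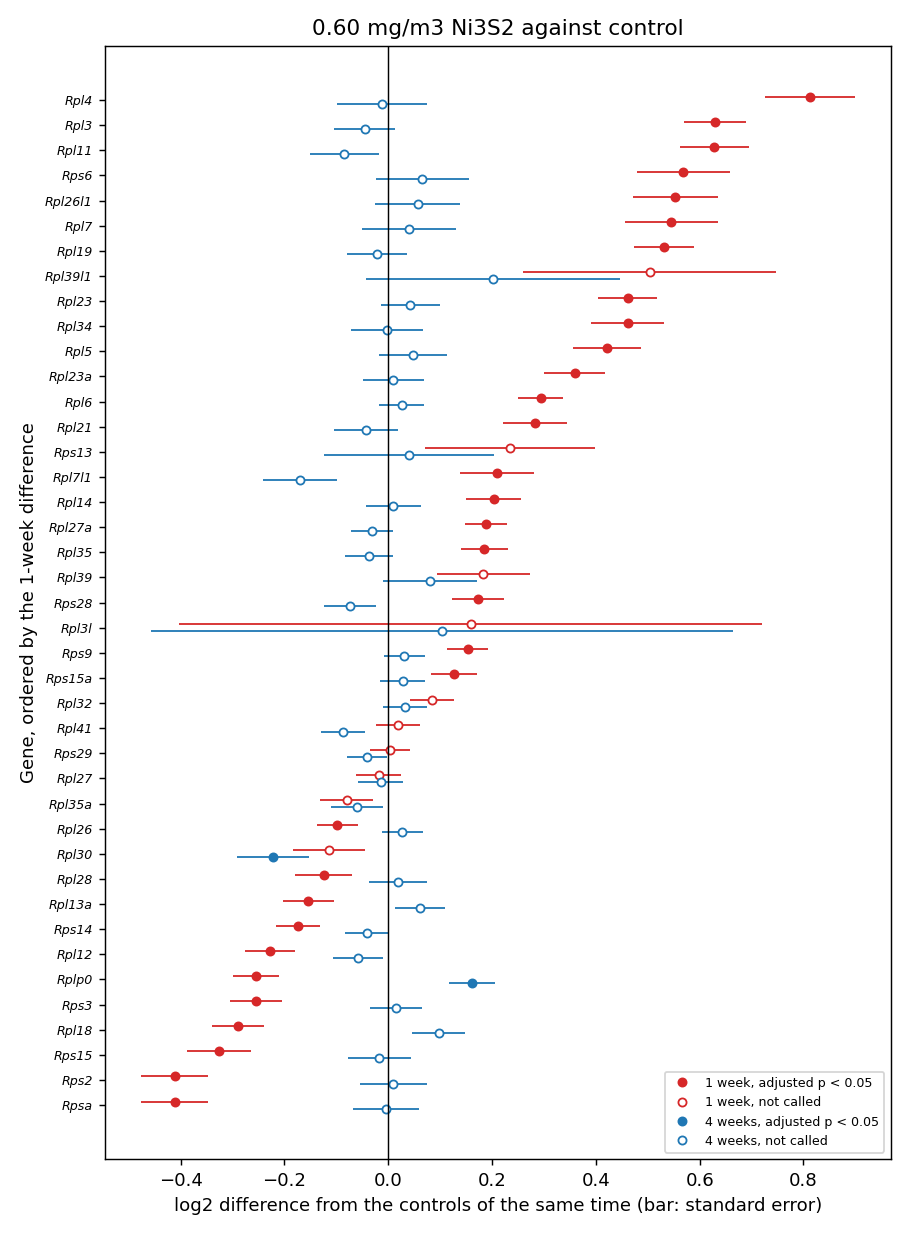
Log2 difference between 0.60 mg/m3 and the controls of the same time for each of the 41 members at 1 week (red) and 4 weeks (blue), with standard errors, filled points called at adjusted p under 0.05 and open points not called. At 1 week the values run from -0.41 for Rpsa to 0.81 for Rpl4, and at 4 weeks 39 of the 41 points are open and lie around 0.

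A few members read nearly the same on the arrays of all 10 groups. The narrowest range of the 10 group means was 0.107 for Rps29, a small zinc-binding protein, followed by Rpl32 (0.133), Rpl26 (0.136), Rpl41 (0.164) and Rps9 (0.168); the widest were those of Rpl3l (1.53), Rpl4 (1.23), Rps6 (1.04), Rpl7 (0.918) and Rpsa (0.846), on the log2 scale. Rps29 group means ran from 13.32 to 13.43. Rpl41, the shortest ribosomal protein, was called in none of the 8 comparisons with controls, like Rps29 and Rpl32.

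Members in common use as reference genes differed among themselves. Rpl32 read 12.83, 12.80, 12.76, 12.83 and 12.79 in the 1-week controls and 12.86, 12.89, 12.89, 12.88 and 12.91 at 0.60 mg/m3. These groups did not overlap, but the difference, 0.08, was not called (adjusted p = 0.0790). Rpl19 rose by 0.53 and Rps9 by 0.15, Rplp0 fell by 0.25 and Rpl13a by 0.15 (log2). Of 9 other reference genes measured, 7 rose and 1 fell at 0.60 mg/m3 at 1 week, among them Hprt1 at 0.92 and Sdha at 0.94, with Actb at -0.35.

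The lowest concentration went the other way for part of the rising genes. At 0.04 mg/m3 and 1 week, 6 members fell and 1 rose, where 26.9% of all genes were called (11.8% lower and 15.1% higher), and the members' median was -0.03 (log2) against 0.06 over all genes. The falls were Rps6 (-0.32), Rpl4 (-0.27), Rpl7 (-0.26), Rpl5 (-0.20), Rpl34 (-0.19) and Rpl3 (-0.17), and the rise was Rpl7l1 (0.26), a paralogue of Rpl7. The lowest of the 10 group means lay in this group for 15 of 41 members (36.6%), against 26.6% of all genes. The number of falls was 1 when only the arrays of the groups compared were fitted. In such fits, here and below, the share of all genes called was not counted, and the shares given are those of the fit of all 50 arrays. The number of falls was 1 without control replicate 5 or without replicate 4 of the exposed group, 3 without control replicate 2 and 10 without replicate 3 of the exposed group.

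At 0.08 mg/m3 and 1 week, 17 members rose and 7 fell, where 48.6% of all genes were called (25.1% higher and 23.5% lower). The largest rises were Rpl4 (0.47), Rpl11 (0.42), Rpl26l1 (0.39), Rpl3 (0.36) and Rpl19 (0.35), and the largest falls Rpsa (-0.26), Rps2 (-0.25), Rpl18 (-0.19), Rps15 (-0.17) and Rps3 (-0.15). Only 2 members lay wholly above and 2 wholly below the controls, where 8.89% and 4.56% of all genes did. With each array centred on its median 13 rose and 9 fell, and with only the 10 arrays compared limma called 5 rises and no fall (3 falls at an unadjusted p under 0.05). Leaving out replicate 1 of this group, which lay with the controls for Rpl4 and below them for Rps6, gave 18 rises and 8 falls; leaving out replicate 3 gave 4 falls.

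Comparisons between neighbouring concentrations do not use the controls. From 0.04 to 0.08 mg/m3, 16 members rose and 8 fell, where 62.9% of all genes were called (29.3% higher and 33.5% lower), led by Rpl4 (0.73), Rps6 (0.60) and Rpl11 (0.58) upward and Rps2 and Rpsa downward (-0.21 and -0.26). With only the arrays compared limma called no fall, with 1 at an unadjusted p under 0.05. From 0.08 to 0.15 mg/m3, 13 rose and 7 fell, where 46.8% were called (23.1% higher and 23.6% lower). Here Rps13 (0.40), Rpl4 (0.36) and Rpl7 (0.32) rose the most, the Rps13 value coming from a dim probe set (mean 4.94; a bright one at 12.3 is shared with like genes), and Rps15 fell the most (-0.27). That step gave 6 rises and 5 falls without replicate 1 of the 0.08 mg/m3 group, and no call by limma with only the 10 arrays compared, with 9 at an unadjusted p under 0.05. From 0.15 to 0.60 mg/m3 limma called no member, with 1 at an unadjusted p under 0.05, where 0.0149% of all genes were called. Apart from Rpl3l, no member differed by more than 0.156 between these 2 groups (log2).

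After 4 weeks the exposed groups lay close to their controls. Of 41 members, 1 rose and 1 fell at 0.60 mg/m3, where 17.4% of all genes were called (9.47% higher and 7.9% lower), with a median of 0.00972 for the members and -0.0046 for all genes. Rplp0 read 12.33, 12.25, 12.27, 12.29 and 12.32 in the 4-week controls and 12.44, 12.43, 12.49, 12.43 and 12.47 at 0.60 mg/m3. These groups did not overlap, and the rise was 0.16 ± 0.0444 (log2, SE; adjusted p = 0.00759), the opposite direction to 1 week. With each array centred on its median the call of Rplp0 was lost, and limma called 3 falls (Rpl30, Rpl41 and Rpl7l1) and no rise, with 1 rise at an unadjusted p under 0.05.

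The other call at 0.60 mg/m3 was Rpl30, a large subunit protein whose probe set lay in the dimmest 25% of genes (mean 2.81, where the lowest value of any probe set was 2.22). It read 3.09, 2.84, 2.71, 2.82 and 2.82 in controls and 2.67, 2.70, 2.57, 2.71 and 2.53 at 0.60 mg/m3, a change of -0.22 ± 0.0696 (log2, SE; adjusted p = 0.0201). All exposed arrays were below every control array, and control replicate 1 stood highest. A bright probe set that Rpl30 shares with Rpl30l2 (mean 12.71) differed by 0.0035 in the same comparison and was not called (limma over all probe sets, adjusted p = 0.977). The call of the dim one was lost without control replicate 1 and without replicate 3 or 5 of the exposed group. For 39 of 41 members the 95% interval of the difference at 0.60 mg/m3 and 4 weeks lay within 1.5-fold in either direction, the exceptions being Rpl3l and Rpl39l1. Rpl4 differed by -0.01, Rps6 by 0.07, Rpl3 by -0.05, Rpsa by 0.00 and Rps2 by 0.01 (log2), none of them called.

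At the lower concentrations and 4 weeks the calls were few and small. At 0.04 mg/m3 limma called 5 rises and no fall, with 1 fall at an unadjusted p under 0.05, where 12.9% of all genes were called (8.29% higher and 4.61% lower): Rplp0 (0.18), Rpl28 (0.18), Rpl18 (0.16), Rpl14 (0.16) and Rps9 (0.13). At 0.08 mg/m3 only Rplp0 rose (0.19), where 8.54% were called (5.67% higher and 2.87% lower), with 1 fall at an unadjusted p under 0.05 and with 2 calls when replicate 1, 3 or 5 of that group was left out, and at 0.15 mg/m3 limma called no member, with 1 at an unadjusted p under 0.05, where 3.5% were called. Median centring of the arrays removed all 5 rises at 0.04 mg/m3 and the rise at 0.08 mg/m3. It added 1 fall in each that the main fit did not call (Rpl30 and Rpl26l1), with 2 rises in each at limma's unadjusted p under 0.05. Without control replicate 2 or exposed replicate 4 the count at 0.04 mg/m3 was 1, without control replicate 5 it was 2, and without exposed replicate 3 it was 3.

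Rplp0 at 0.04 mg/m3 read 12.49, 12.43, 12.48, 12.51 and 12.44, and at 0.08 mg/m3 12.51, 12.49, 12.51, 12.45 and 12.47. Both groups lay wholly above the 4-week controls, and the 0.15 mg/m3 group (12.35, 12.28, 12.32, 12.36 and 12.30) overlapped them. In the 0.04 mg/m3 group, 12 of 12 heart muscle, 9 of 9 smooth muscle, 6 of 6 B cell and 10 of 12 T cell markers also rose, with medians of 2.19, 1.04, 1.28 and 0.884 (log2). The mean level of the heart muscle markers ran from 9.37 to 9.99 there, from 8.40 to 9.69 at 0.08 mg/m3 and from 6.80 to 8.14 in the 4-week controls. In whole tissue, more cells of a type and more RNA per cell cannot be told apart, and the part of these cells in the rise of Rplp0 was not tested.

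The group means of the members spanned less at 4 weeks than at 1 week in 34 of 41 genes (82.9%), a share near that of all genes (81.5%). The median span over the 5 groups was 0.294 at 1 week and 0.112 at 4 weeks for the members, and 0.665 and 0.273 for all genes (log2). The median SD within groups was 0.0789 for the members and 0.169 for all genes.

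Whether the change differed between the times was tested directly, as the change at 4 weeks minus the change at 1 week. This term takes in the difference between the controls of both times. At 0.60 mg/m3 this difference was above 0 for 8 members and below 0 for 18, where 56.7% of all genes were called (27.7% above and 29% below), and at 0.15 mg/m3 for 9 and 18, where 56.8% were (27.4% and 29.4%). Rpl4 was the furthest below 0 (-0.83 ± 0.122 (log2, SE; adjusted p = 2.50e-07) at 0.60 mg/m3), and Rps2, Rplp0 and Rpsa the furthest above (0.42, 0.42 and 0.41). Group means of Rpl4 at 0.60 mg/m3 were 12.12 at 1 week and 12.18 at 4 weeks, and those of its controls 11.31 and 12.19. For Rps2 they were 12.44 and 12.18 at 0.60 mg/m3, and 12.85 and 12.18 in controls. At 0.08 mg/m3 the counts were 10 above and 8 below, where 44.4% were called (21.4% and 23%). They were 8 and 12 with each array centred on its median and 5 and 4 with the compared arrays alone. There the count below 0 was 13 without replicate 1 and 5 without replicate 5 of the 1-week exposed group. At 0.04 mg/m3 only Rps6 was called (0.37 ± 0.126 (log2, SE; adjusted p = 0.0481)), where 12% were (7.22% above and 4.78% below), and this call was lost in 17 of the 20 fits that left out 1 of the arrays compared, and in the median-centred fit (adjusted p = 0.106).

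The controls of the 2 times differed from each other in most members. In 4-week against 1-week controls, 16 members were higher and 14 lower, where 73.5% of all genes were called (35.2% in the first direction, 38.2% in the second), and 9 were called with at least 1.5-fold, where 49.8% of all genes were. With each array centred on its median the counts were 20 and 11. Rpl4 was higher by 0.88 ± 0.0863 (log2, SE; adjusted p = 1.89e-12), with 4-week control arrays at 12.21, 12.21, 12.18, 12.21 and 12.16, all above the 1-week controls given earlier. Rps6 (0.65), Rpl11 (0.62), Rpl7 (0.59) and Rpl3 (0.59) were the next highest. Rpsa was lower by -0.73 ± 0.0640 (log2, SE; adjusted p = 7.88e-14), with 4-week controls at 11.84, 11.72, 11.76, 11.72 and 11.78, all below the 1-week controls. Rps2 (-0.67), Rps15 (-0.60), Rpl18 (-0.59) and Rplp0 (-0.53) followed. Age, time in the study and any handling that differed between the 2 times cannot be told apart.

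Because all 1-week exposure comparisons share 1 set of control arrays with this one, its likeness to the exposure changes of the members was counted only in comparisons with no array in common. Between 4-week against 1-week controls and 0.15 against 0.08 mg/m3 at 1 week, 40 of 41 members had the same sign (97.6%; all genes 82.9%). Members called in both numbered 19, which is 63.3% of the 30 called in the first and 95% of the 20 called in the second (all genes 58.7% and 92.2%), and none had opposite signs. Against 0.08 over 0.04 mg/m3, 37 of 41 had the same sign (90.2%; all genes 85.2%), and 22 were called in both, 73.3% of the first and 91.7% of the second (all genes 76.6% and 89.5%). The shares called in both were near those of all genes. The shares with the same sign, 97.6% and 90.2%, lay above the 82.9% and 85.2% of all genes. Rpl4, for example, was 0.88 in the controls and 0.36 from 0.08 to 0.15 mg/m3, and Rps2 was -0.67 and -0.22 (log2). Against 0.60 over 0.15 mg/m3 the share was 12 of 41 (29.3%; all genes 34.7%). These shares describe the genes, which are not independent, and carry no test.

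**Figure D4:**
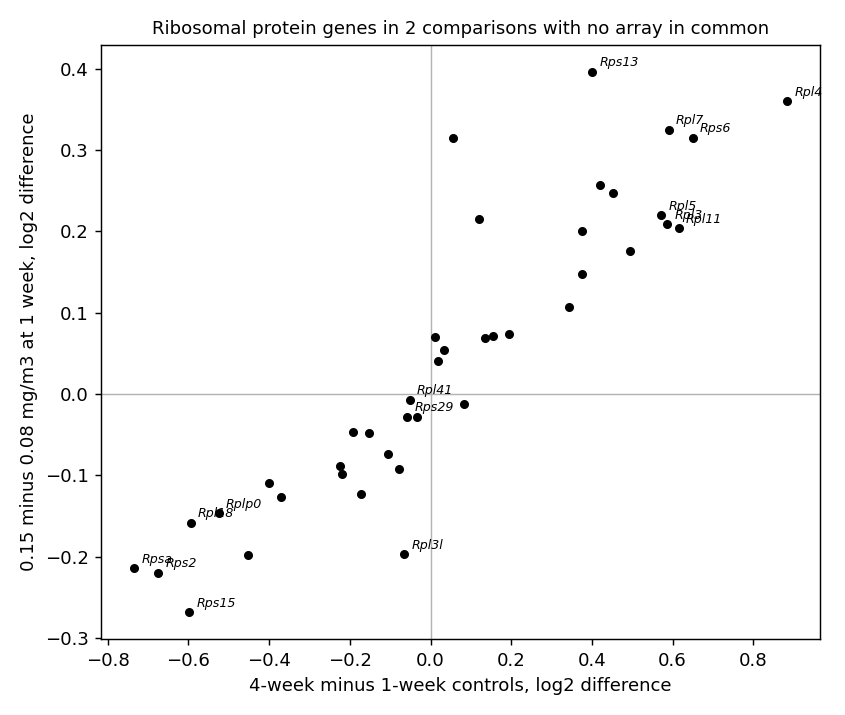
Log2 difference of each of the 41 members between 4-week and 1-week controls (horizontal) and between 0.15 and 0.08 mg/m3 at 1 week (vertical), comparisons that share no array. 40 of 41 genes lie lower left or upper right of both 0 lines, with Rpl4 at 0.88 and 0.36 and Rpsa at -0.73 and -0.21.

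Set against the 4-week controls in place of their own, an alternative added after the data were seen, the 1-week groups at 0.15 and 0.60 mg/m3 had 11 and 15 members higher, where 42.6% and 49.4% of all genes were called, and no member called lower by limma, with 1 at an unadjusted p under 0.05 in each. In that reading Rpl4 at 0.60 mg/m3 was -0.07 and Rps6 -0.08 (neither called), while Rpsa was 0.32, Rps2 0.26, Rpl18 0.31, Rps15 0.27 and Rps3 0.20 (log2), all of them higher. The shares of all genes given here count both directions together, so they do not show whether all genes were as one-sided.

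Markers of several cell types moved with the groups in the same 1-week comparison. In the 0.60 mg/m3 group, 8 of 9 smooth muscle markers fell (median -1.22), 5 of 6 B cell markers fell (-0.815), 10 of 12 heart muscle markers rose (1.51), 11 of 12 dividing cell markers rose (1.67) and 6 of 8 neutrophil markers rose (0.683, log2). The mean level of the dividing cell markers ran from 5.10 to 5.33 in 1-week controls and from 6.86 to 7.54 at 0.60 mg/m3, and that of smooth muscle from 8.72 to 9.49 and from 7.61 to 8.25. Between the controls of both times, 7 of 9 smooth muscle and 5 of 6 B cell markers were lower at 4 weeks, 5 of 12 dividing cell markers were higher and 1 was lower. That comparison shares the 1-week control arrays with the one at 0.60 mg/m3. After 4 weeks at 0.60 mg/m3, 11 of 12 dividing cell markers rose (median 1.22), with 2 of 41 ribosomal protein genes called. The part of these cells in the changes of the ribosomal protein genes was not tested.

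Rpl3l, the paralogue that takes the place of Rpl3 in ribosomes of heart and skeletal muscle, was near the floor of the array in most samples. It read 3.45, 3.22, 3.22, 3.30 and 3.17 in the 4-week controls. At 0.04 mg/m3 and 4 weeks it read 3.61, 3.33, 5.47, 3.75 and 3.86, and at 0.08 mg/m3 9.83, 3.74, 3.61, 3.47 and 3.36. Replicate 3 of the first and replicate 1 of the second stood far above all other arrays. On those arrays Ckm, the creatine kinase of muscle, read 8.77 and 11.90, and Acta1, skeletal muscle actin, 10.87 and 12.90. The mean of the 8 skeletal muscle markers was 7.68 and 10.7 there and at most 4.93 on the other 48 arrays. With all arrays Rpl3l was not called at 0.04 mg/m3 (0.73, adjusted p = 0.435) or 0.08 mg/m3 (1.53, adjusted p = 0.0763). Without those 2 arrays it rose by 0.37 ± 0.0865 (adjusted p = 0.00456) at 0.04 mg/m3 and by 0.28 ± 0.0865 (adjusted p = 0.0336) at 0.08 mg/m3, groups in which heart muscle markers were also higher. In the same fit 3 members rose at 0.04 mg/m3 (Rpl28, Rpl3l and Rplp0) and 2 at 0.08 mg/m3 (Rpl3l and Rplp0).

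**Figure D5:**
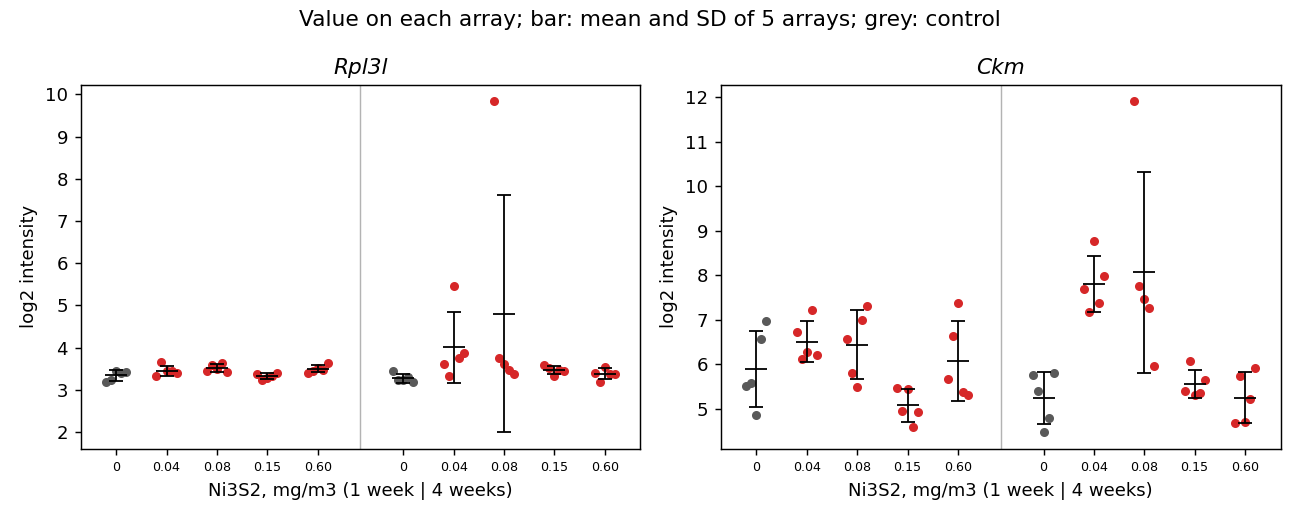
Log2 intensity of Rpl3l (left) and Ckm (right) on each of the 50 arrays against the Ni3S2 concentration in mg/m3, with 1 week left and 4 weeks right of the line, controls in grey and bars for the mean and SD of 5 arrays. Replicate 1 at 0.08 mg/m3 and 4 weeks stands at 9.83 for Rpl3l and 11.90 for Ckm, and replicate 3 at 0.04 mg/m3 at 5.47 and 8.77, above all other arrays in both panels.

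Values of the other paralogues and their partners were as follows. Rpl7l1 rose by 0.26 at 0.04 mg/m3 and 1 week, where Rpl7 fell by 0.26, and at 0.60 mg/m3 the values were 0.21 and 0.55 (log2). Its second probe set was not called at 0.15 or 0.60 mg/m3 (-0.06 and -0.0093). Rpl7's second probe set gave 0.14 (not called) and 0.39 (called) at those concentrations, against 0.64 and 0.55 for the main one. Rpl39l1, a like gene of the exit tunnel protein Rpl39, was not called in any comparison, with 0.50 ± 0.244 at 0.60 mg/m3 and 1 week; Rpl39 gave 0.18 (adjusted p = 0.0707). The differences between paralogues were not tested.

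A further 41 probe sets carry a ribosomal protein symbol together with others, often pseudogenes, and their signal cannot be given to one gene. At 0.60 mg/m3 and 1 week 15 of them rose and 14 fell, where 52% of all 31042 probe sets were called, from -0.60 to 0.69 (log2). The one that holds Rplp1, an acidic stalk protein, changed by -0.23, the one that holds Rps19 by 0.14 and the one that holds Rps27 and its like genes by -0.26, while those with Rpl10 and Rps18 were not called (-0.10 and 0.02). Limma called none of the 41 at 0.60 mg/m3 and 4 weeks, with 2 at an unadjusted p under 0.05, where 12.9% of all probe sets were. In the fit of all probe sets 11 were higher and 19 lower in 4-week than in 1-week controls, where 63.3% were called.

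Other parts of the translation machinery divided in the same comparisons. A list of translation factors and further genes, only some of them known for such a tract, held 26 measured genes. The tract was not looked for in this list. At 0.60 mg/m3 and 1 week 16 of these genes rose and 9 fell (median 0.305), where 32.8% of all genes were higher and 32.3% lower. The rises were led by the helicase Eif4a1 (1.15) and the initiation factor subunits Eif3c (1.08) and Eif3l (1.07). At 4 weeks Eif4a1 alone was called (0.32). Of 71 genes of ribosome assembly and rRNA synthesis, 39 rose and 17 fell at 1 week (median 0.348), with Nolc1, a nucleolar chaperone of the small nucleolar RNPs, at 1.58, Wdr12, a large subunit assembly factor, at 1.52 and Rrn3, an RNA polymerase I factor, at 1.27. At 4 weeks 8 of these rose and 1 fell (median 0.112), where 9.47% of all genes were higher and 7.9% lower, among them Gar1 (0.37) and Gnl3 (0.36).

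Among 29 kinases and regulators of ribosome function and translation, 14 rose and 7 fell at 0.60 mg/m3 and 1 week (median 0.0664), with Mtor at 1.00. At 4 weeks 3 rose and 1 fell, including Eif2ak2, the kinase that double-stranded RNA activates, at 0.87, and Atf4 at 0.21. Of the 73 mitochondrial ribosomal protein genes, 42 rose and 21 fell at 1 week (median 0.362), and limma called none at 4 weeks (median -0.05), with 10 at an unadjusted p under 0.05. For both lists the shares of all genes at 0.60 mg/m3 were 32.8% higher and 32.3% lower at 1 week, and 9.47% and 7.9% at 4 weeks. The cytosolic members' median at 1 week was 0.173, and that of all genes -0.01 (log2).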

How the data were processed

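The authors deposited log2 intensities of 50 one-colour expression arrays, made with RMA in Partek per the submitters' processing notes (versions not given in these sources); RMA compresses differences between dim probe sets. RNA was labelled with biotin from 50 to 150 ng. Of 31042 probe sets, 19063 carried 1 symbol in the platform table, 572 several and 11407 none, and the brightest probe set stood for each of 13438 genes. A group-means model was fitted to all 50 arrays with limma 3.58.1 (R 4.3.3; lmFit, eBayes, two-sided), with Benjamini-Hochberg adjustment inside each of 16 comparisons; an adjusted p under 0.05 counts as a call. It was tested on simulated data. Replicates are rats, and 5 arrays a group limit the precision.

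Alternatives were median centring, quantile normalization, omission of the dimmest 25% of genes, the mean of probe sets, a replicate block, the compared arrays alone and each array left out; the 4-week controls as reference, omission of 2 arrays and the fit of all probe sets were added after seeing the data. Members and lists were chosen with earlier results of these data known. Named members are the 5 largest calls in each direction, paralogues with partners, common reference genes, 8 given by name (among them Rpl5, Rpl11, Rps6 and Rpsa), and the 5 widest and 5 narrowest ranges; Rpl23, Rpl23a, Rpl6, Rpl21, Rpl26, Rpl39 and other members outside this rule were named after their values were seen.

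Of the 17 cell type lists, those not described in the text had these median changes (log2) at 0.60 mg/m3 and 1 week: -0.07 for alveolar type 2, 0.76 for alveolar type 1, -0.64 for club, 0.13 for ciliated, -0.39 for endothelial, 0.04 for plasma, -0.30 for T, 0.30 for NK and cytotoxic and -0.28 for red blood cells, -0.44 for adipocytes, 0.34 for alveolar macrophages and -0.00397 for skeletal muscle.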

Additional observations from a re-analysis of the deposited data

Results flagged for a closer look

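Dixon's ratio of gap to range was computed in 130 sets of 5 arrays, and 8 sets had an array beyond the 95% limit of 0.71 for 5 values; chance gives about 1 set in 20. The wide ones were Rpl3l, at 9.83 in replicate 1 of 0.08 mg/m3 and at 5.47 in replicate 3 of 0.04 mg/m3, both at 4 weeks, where the other arrays read 3.36 to 3.74 and 3.33 to 3.86. Rpl26l1 read 5.32 in replicate 5 of 0.08 mg/m3 at 1 week, against 4.91 to 4.99. Rpl18 read 12.44 in replicate 1 of 0.15 mg/m3 at 4 weeks, against 12.24 to 12.30. The remaining ones were small in size: Rpl3 at 12.74 in replicate 3 of 0.08 mg/m3 at 4 weeks and at 12.75 in replicate 2 of 0.60 mg/m3 at 1 week, Rpl11 at 12.47 in replicate 5 of 0.04 mg/m3 at 4 weeks, and the mean over all members at 11.26 in replicate 1 of 0.60 mg/m3 at 1 week, against 11.31 to 11.33.

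The change from control differed between 4 weeks and 1 week, by limma's interaction term, for the following named members, each given as the 4-week change minus the 1-week change on the log2 scale. That term takes in the difference between the controls of both times. Above 0 at 0.60 mg/m3 were Rps2 at 0.42, Rplp0 at 0.42, Rpsa at 0.41, Rpl18 at 0.39 and Rps15 at 0.31. Below 0 were Rpl4 at -0.83, Rpl11 at -0.71, Rpl3 at -0.67, Rpl19 at -0.55 and Rpl7 at -0.51. At 0.15 mg/m3 the values were 0.45 for Rps15, 0.43 for Rps2, 0.39 for Rpl18, 0.37 for Rpsa and 0.33 for Rplp0, and -0.86 for Rpl4, -0.69 for Rpl7, -0.65 for Rpl11, -0.64 for Rpl26l1 and -0.61 for Rpl3. At 0.08 mg/m3 they were 0.42 for Rpsa, 0.34 for Rplp0, 0.34 for Rps2, 0.32 for Rpl18 and 0.28 for Rps15, and -0.60 for Rpl26l1, -0.44 for Rpl11, -0.41 for Rpl4, -0.33 for Rpl3 and -0.31 for Rpl7. At 0.04 mg/m3 Rps6 stood at 0.37.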

How the results depend on the processing

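With each array centred on its median, members called higher and lower numbered 0 and 1 at 0.04 mg/m3, 0 and 1 at 0.08 mg/m3 and 0 and 3 at 0.60 mg/m3 at 4 weeks, with member medians of -0.00718, -0.00805 and -0.0301; the median between controls was 0.11, the interaction at 0.04 mg/m3 gave 0 higher, 2 lower and a median of 0.0557, and that at 0.08 mg/m3 a median of -0.0338. At limma's unadjusted p under 0.05 the centred counts of 0 higher were 2, 2 and 1 at those concentrations and 2 in the interaction. Quantile normalization gave 1, 1 and 3 members lower at 0.04, 0.08 and 0.60 mg/m3 at 4 weeks, 1 lower in the interaction at 0.04 mg/m3, and a median of 0.0375 at 0.08 mg/m3 and 1 week. Without the dimmest 25% of genes 0 members were lower at 0.60 mg/m3 and 4 weeks, since Rpl30 is among those left out (1 at an unadjusted p under 0.05). With the mean of probe sets the interaction at 0.04 mg/m3 had 2 members higher and the median of 0.15 against 0.08 mg/m3 was -0.0038. The compared arrays alone gave 1 lower at 0.04 mg/m3 and 1 week, 5 higher and 0 lower at 0.08 mg/m3 and 1 week, 3 higher in the interaction at 0.04 mg/m3, 5 and 4 in that at 0.08 mg/m3, 0 lower for 0.08 against 0.04 mg/m3, and 0 and 0 for 0.15 against 0.08 mg/m3. The replicate block gave 0 members higher in the interaction at 0.04 mg/m3 (13 at an unadjusted p under 0.05) and moved no other count or median of the members beyond its limit. Replicate numbers did not pair the rats: in 12 comparisons of groups none had all 5 same-numbered pairs correlated above 0.1 (range -0.486 to 0.61). Shares of all genes called were not counted under these settings, so a change particular to the members cannot be told from a general one. Where not given, the cause of a difference between settings was not tested.

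Leaving out 1 array at a time, the ranges of counts were 1 to 10 lower at 0.04 mg/m3 and 1 week, 4 to 9 lower at 0.08 mg/m3 and 1 week, 1 to 5 higher at 0.04 mg/m3, 1 to 2 higher at 0.08 mg/m3 and 0 to 1 lower at 0.60 mg/m3 at 4 weeks, 0 to 3 higher in the interaction at 0.04 mg/m3, 5 to 13 lower in that at 0.08 mg/m3, and 6 to 13 higher for 0.15 against 0.08 mg/m3. Medians ran from -0.00564 to 0.0668 for 0.15 against 0.08 mg/m3 and from -0.16 to -0.11 in the interaction at 0.60 mg/m3. At 0.15 and 0.60 mg/m3 and 1 week the counts stayed between 17 and 21 higher and 9 and 13 lower. Without the 2 arrays highest in skeletal muscle markers, 3 members were higher at 0.04 mg/m3 and 2 at 0.08 mg/m3 at 4 weeks.

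Against 4-week in place of 1-week controls, members higher and lower at 1 week numbered 13 and 17 at 0.04 mg/m3, 12 and 11 at 0.08 mg/m3 (median 0.0393), 11 and 0 at 0.15 mg/m3 (median 0.0544), and 15 and 0 at 0.60 mg/m3 (median 0.0712), where 81.7%, 64.7%, 42.6% and 49.4% of all genes were called. The sign turned at 0.08 mg/m3 for Rpl4 (-0.42), Rpl11 (-0.19), Rpl26l1 (-0.0267), Rpl3 (-0.23), Rpl19 (-0.15), Rpsa (0.47), Rps2 (0.43), Rpl18 (0.40), Rps15 (0.43) and Rps3 (0.30). At 0.15 mg/m3 they were Rpl4 (-0.0557), Rps6 (-0.0556), Rpsa (0.26), Rps2 (0.21), Rps15 (0.16), Rps3 (0.10) and Rpl18 (0.25), and at 0.60 mg/m3 Rpl4 (-0.0712), Rps6 (-0.0812), Rps2 (0.26), Rpsa (0.32), Rps15 (0.27), Rpl18 (0.31) and Rps3 (0.20). Of these, Rpl26l1 at 0.08 mg/m3, Rpl4, Rps6 and Rps3 at 0.15 mg/m3 and Rpl4 and Rps6 at 0.60 mg/m3 were not called. Those comparisons mix time with exposure, and their shares of all genes count both directions together. Rpl3l, Rpl30 and Rpl39l1 lie among the dimmest 25% of genes.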
